A study of Homo sapiens with 12 samples.

Results

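The genes for the proteins of the cytosolic ribosome were chosen by symbol: RPL or RPS with a number and, where present, a final A or X, the stalk genes RPLP0, RPLP1 and RPLP2, and RPSA. Pseudogenes were not taken. The rule found 77 of the 25268 genes listed, 46 of the large and 31 of the small ribosomal subunit. Of these, 76 reached the mean level needed for a test (an FPKM of 0.5 over all libraries), namely 45 of the large and all 31 of the small subunit. The exception was RPL21, listed at no more than 0.143 FPKM in any library. The rule leaves out genes such as FAU, which encodes a ribosomal protein fused to a ubiquitin-like sequence, and GNB2L1, the scaffold protein RACK1 of the small subunit. These are described apart.

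The cells were HEK293, an established human embryonic kidney line. For each culture, 2 μg of plasmid were transfected transiently: either pCMV6 HIS without an insert (control cells) or the vector for RBMX, an RNA-binding protein of splicing, carrying His and HA tags (RBMX cells). Every group thus carried a transfection, and expression was driven by the viral CMV promoter. Translation elongation was halted with cycloheximide and each lysate was run on a sucrose gradient, in which mRNAs that carry several ribosomes sediment into the heavy fractions. Polysomal RNA came from those fractions and total RNA from a pool of 20% of every fraction, which gave control total, control polysomal, RBMX total and RBMX polysomal RNA with 3 replicates each, 12 libraries in all. Same-numbered total and polysomal libraries of a vector are called a culture here, although the protocol names 2 dishes for the total and polysomal extractions and the labels do not settle that both came from 1 gradient. Each library was made from 500 ng of RNA, and FPKM (fragments scaled by transcript length and library size) is relative within a library. The summed FPKM differed between libraries (817528 to 1903317), whereas factors that match the typical gene between libraries were all near 1 (0.98 to 1.03). The ratio of polysomal to total RNA therefore places a gene relative to the typical gene. It is neither a ratio of shares of the summed FPKM nor the fraction of a gene's molecules on polysomes. The pools average over all cells of a dish, so that an effect in fewer cells and a smaller effect in each cell cannot be told apart.

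Ribosomal protein mRNAs are among the most abundant mRNAs of a growing cell, and most of their products are needed in equal numbers to build each ribosome. Most of these mRNAs start with a C followed by an unbroken run of pyrimidines, the terminal oligopyrimidine or TOP tract, and are therefore called TOP mRNAs. Through this tract their translation is switched on and off together by growth signals that act through mTOR, and TOP mRNAs are known for dividing between heavy polysomes and ribosome-free particles instead of spreading evenly over the gradient.

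The TOP tract was looked up at the RefSeq transcription starts of GRCh38.p14, on the strand of the gene, as a C at the annotated start followed by at least 4 bases that are C or T. Starts were at hand for 62 of the 77 genes, and 46 of these (74.2%) had such a tract at 1 or more annotated starts, against 5.14% of the 27305 genes with a RefSeq start and 4.07% of all 35116 start windows of the same length. The shares of the subunits were alike, with 28 of 38 large and 18 of 24 small subunit genes. A match is a description of the annotated base and does not show where transcription started in these cells. Each window holds 15 bases before the start and 15 bases from it, and, where the start base is a C, the unbroken run of C and T that it opens is in capitals. The first 5 belong to genes among the lowest in polysomal relative to total RNA in control or RBMX cells, the next 4 to genes among the highest, so that the tract can be read beside the values that follow.
RPSA (chr3:39406705-39406734, plus strand): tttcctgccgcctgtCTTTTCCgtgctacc
RPS12 (chr6:132814554-132814583, plus strand): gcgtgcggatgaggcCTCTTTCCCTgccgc
RPLP1 (chr15:69452803-69452832, plus strand): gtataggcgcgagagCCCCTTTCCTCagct
RPL41 (chr12:56116618-56116647, plus strand): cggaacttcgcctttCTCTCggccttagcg
RPS29 (chr14:49598696-49598725, minus strand): ccccgagcgcgcagctggcagcggtggttg
RPL35 (chr9:124861943-124861972, minus strand): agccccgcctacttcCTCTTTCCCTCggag
RPS9 (chr19:54200843-54200872, plus strand): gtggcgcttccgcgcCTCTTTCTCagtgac
RPL3 (chr22:39319609-39319638, minus strand): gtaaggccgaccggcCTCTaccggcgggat
RPS15 (chr19:1438381-1438410, plus strand): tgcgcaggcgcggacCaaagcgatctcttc
Both sets held genes with and without a tract. RPS29 had none at its annotated start yet stood among the lowest genes, whereas RPL35, with a run of 11 pyrimidines, and RPS9, with a run of 9, stood among the highest.

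The libraries were first checked for what could touch these genes. RBMX itself was at 87.4 to 147.8 FPKM in the 6 control libraries and at 1072 to 2073 FPKM in the 6 RBMX libraries. All 6 markers of HEK293 cells were present (for example EPCAM, 55.7 to 85.7 FPKM, and NEFL, 33.0 to 52.6 FPKM), whereas PTPRC and HBB of blood, ALB and APOA2 of liver and DCN and COL3A1 of fibroblasts reached no more than 0.226 FPKM in any library. The exceptions were HBA1 of blood, at up to 0.526 FPKM, and COL1A1 of fibroblasts, at 3.14 to 8.61 FPKM. Their part in the results was not tested. Small RNA genes made up 40.6% to 72.9% of the summed FPKM of a library, and how deeply each library was sequenced is unknown. Of the whole summed FPKM, the ribosomal protein genes took 5.15% to 7.19% in total and 3.26% to 6.24% in polysomal RNA, so that the libraries overlapped. Without small RNA genes, they took 15.2% to 19.0% in total RNA and 9.27% to 14.3% in polysomal RNA. On this measure every polysomal library lay below every total library. The lowest share was in RBMX polysomal replicate 2 and the highest polysomal share in control polysomal replicate 3.

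The listed level of these genes covered a wide range although most of their products are used in equal numbers. The highest means over the 12 libraries were those of RPL37A (4328 FPKM), RPL27 (3906 FPKM), RPL38 (3682 FPKM), RPS16 (3541 FPKM) and RPL36 (2906 FPKM). The lowest among the tested genes were those of RPS27 (4.16 FPKM), RPL36A (9.57 FPKM), RPS28 (24.3 FPKM), RPS26 (28.9 FPKM) and RPL27A (38.0 FPKM). These genes have many processed copies in the genome: GENCODE names 1133 pseudogenes for 76 of the 77 genes, and 30 pseudogenes were listed in the table with 0.78% to 0.97% of the summed level of the genes themselves. In control total RNA the median level was 1280 FPKM in the 31 genes with up to 5 pseudogenes, 695.6 FPKM in the 22 with 6 to 15 and 257.6 FPKM in the 23 with more (Spearman's rho across the 76 genes, -0.39, a description over genes that share libraries). Fragments that fit several copies could be split or lost in counting, so that levels of genes with many copies are uncertain, and the part of this in the levels was not tested. The median level of the large subunit genes was below that of the small subunit genes in each of the 12 libraries, with a large minus small difference of -1.33 to -1.20 on the log2(FPKM + 1) scale in total and of -0.99 to -0.81 in polysomal RNA. The gap was smaller among genes at 100 FPKM or more (-0.82 in control total and -0.74 in control polysomal RNA) and when means were taken in place of medians (-0.52 and -0.32).

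The first comparison set the FPKM of each ribosomal protein mRNA in polysomal RNA of control cells against its FPKM in their total RNA. Relative to total RNA of the same culture, all 76 genes were lower in polysomal RNA in all 3 control cultures. A lower value in each culture was seen in 22% of all genes tested. Under quantile normalization, which forces all libraries to the same distribution, only 59 of the 76 were lower on average. There 41.3% of all genes were lower, with a median of 0.03. The count was 66 under quantile normalization without small RNA genes and 76 with median-ratio rescaling or small RNA genes left out. The median gene stood at 63.5% of its total level (log2 difference, -0.66, but -0.38 under quantile normalization), from 33.4% for RPS2 to 83.8% for RPS15, while the median of all 14676 genes tested was 0 on the log2 scale and their 5th percentile was -0.36. Polysomal and total replicates did not overlap for 65 of the 76 genes (37 large, 28 small), against 7.31% of all genes in this direction. By limma's moderated test, 58 of the 76 had an unadjusted p under 0.05 and lay lower, against 4.84% of all genes. Under quantile normalization 36 had such a p in either direction, against 1211 of all 14676 genes.

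Only RPSA passed the adjusted threshold of 0.05, as 1 of 12 genes called overall (0.0818% of the genes tested). RPSA encodes the small subunit protein also known as the laminin receptor. Its FPKM was 129, 129 and 126 in the control total and 48.8, 52.9 and 49.5 in the control polysomal libraries, so that the groups were far apart and each was tight. It stood at 39.8% of total RNA (log2 difference -1.33, SE 0.06, limma adjusted p = 0.00303) and was called under each alternative setting tried, with adjusted p from 0.00211 to 0.0373. RPSA has 74 named pseudogenes, and RPSAP58, whose fragments cannot be told apart with certainty, was listed at a higher level than RPSA itself, at 285 to 292 FPKM in control total and 109 to 118 FPKM in control polysomal RNA. Both symbols were thus lower in polysomes, and which of them the fragments came from was not tested.

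**Figure D1:**
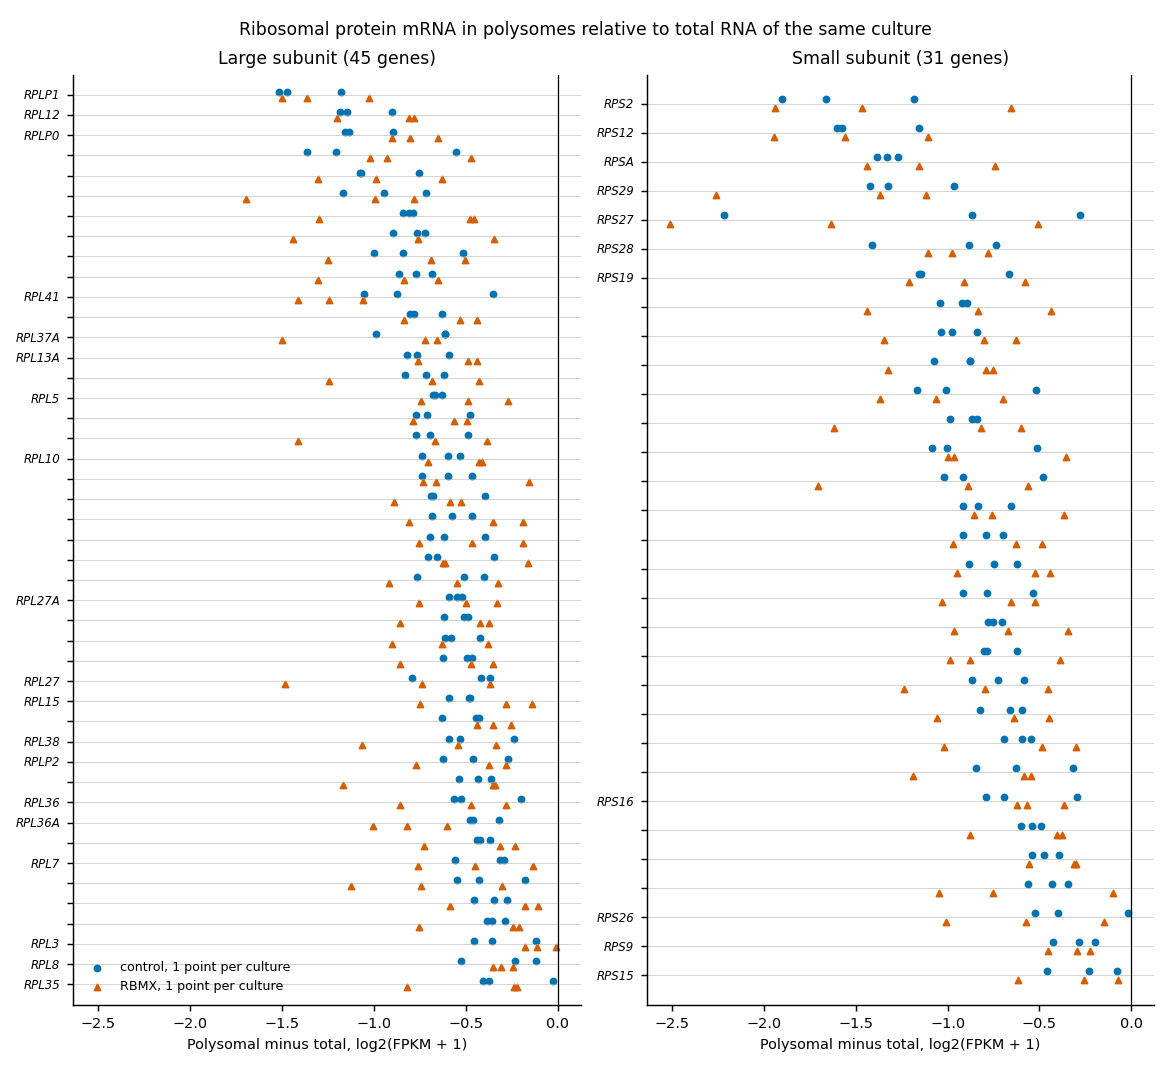
Polysomal minus total level of each of the 76 tested genes on the log2(FPKM + 1) scale, with 1 point per culture (circles, control; triangles, RBMX), for the large subunit (left) and the small subunit (right), ordered by the control mean, with names for genes described in the text. All points lie below 0 on the deposited scale. Under quantile normalization 59 of the 76 genes in control and 49 in RBMX cells were lower on average, against 41.3% and 40.0% of all genes.

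Among the genes with the largest differences were several of the small subunit. RPS2, which lines the path by which mRNA enters the small subunit, was listed at 359, 515 and 395 FPKM in control total and at 113, 137 and 173 FPKM in control polysomal RNA (log2 difference -1.58, SE 0.21, limma adjusted p = 0.23). RPS12, a protein of the small subunit's head, was at 1170, 1124 and 1368 FPKM in control total and at 393, 369 and 613 FPKM in control polysomal RNA (log2 difference -1.44, SE 0.23, adjusted p = 0.36). RPS29, a short zinc-binding protein, stood at 42.5% of its total level (log2 difference -1.24, SE 0.29, adjusted p = 0.58). In each of these genes the polysomal replicates lay below all total replicates, and control culture 3 had the highest polysomal value.

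The stalk genes differed among themselves. RPLP0, RPLP1 and RPLP2 form the lateral stalk of the large subunit, which recruits the elongation factors. RPLP1 was at 2569, 2460 and 2648 FPKM in control total and at 896, 886 and 1171 FPKM in control polysomal RNA (log2 difference -1.39, SE 0.18, limma adjusted p = 0.20). RPLP0 was at 317 to 335 FPKM in total and at 144 to 176 FPKM in polysomal RNA (log2 difference -1.06, SE 0.10, adjusted p = 0.077). RPLP2, which forms dimers with RPLP1, was at 2301 to 2586 FPKM in total and at 1639 to 2147 FPKM in polysomal RNA, or 73.2% of total (log2 difference -0.45, SE 0.19, adjusted p = 0.63), and turned higher under quantile normalization. RPL12, which binds at the base of the stalk, stood at 47.4% (log2 difference -1.08, SE 0.12, adjusted p = 0.15). RPLP0 and RPL12 passed the threshold beside RPSA when control polysomal replicate 3 was left out, where 26 of all 14676 genes passed. When the spread was estimated from all 12 libraries, 8 of the 76 genes passed, against 41 of all 14676 genes. Among these 8 were RPL10, RPL12, RPLP0, RPLP1, RPS2, RPS12 and RPSA.

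At the other end, RPS15, RPL35, RPL8, RPS9 and RPL3 had the highest ratios of polysomal to total RNA. RPL3 and RPL8 lie near the peptidyl transferase centre, RPL35 at the exit of the peptide tunnel, RPS9 at the mRNA entry and RPS15 in the head of the small subunit. Their log2 differences ran from -0.31 for RPL3 to -0.26 for RPS15, and their adjusted p from 0.64 to 0.83. RPL35 was at 1812, 1668 and 1958 FPKM in total and at 1366, 1286 and 1922 FPKM in polysomal RNA, so that its groups overlapped. Under quantile normalization RPS15, RPL35, RPL8 and RPS9 were higher in polysomal RNA instead, by 0.02 to 0.48 on the log2 scale.

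**Figure D2:**
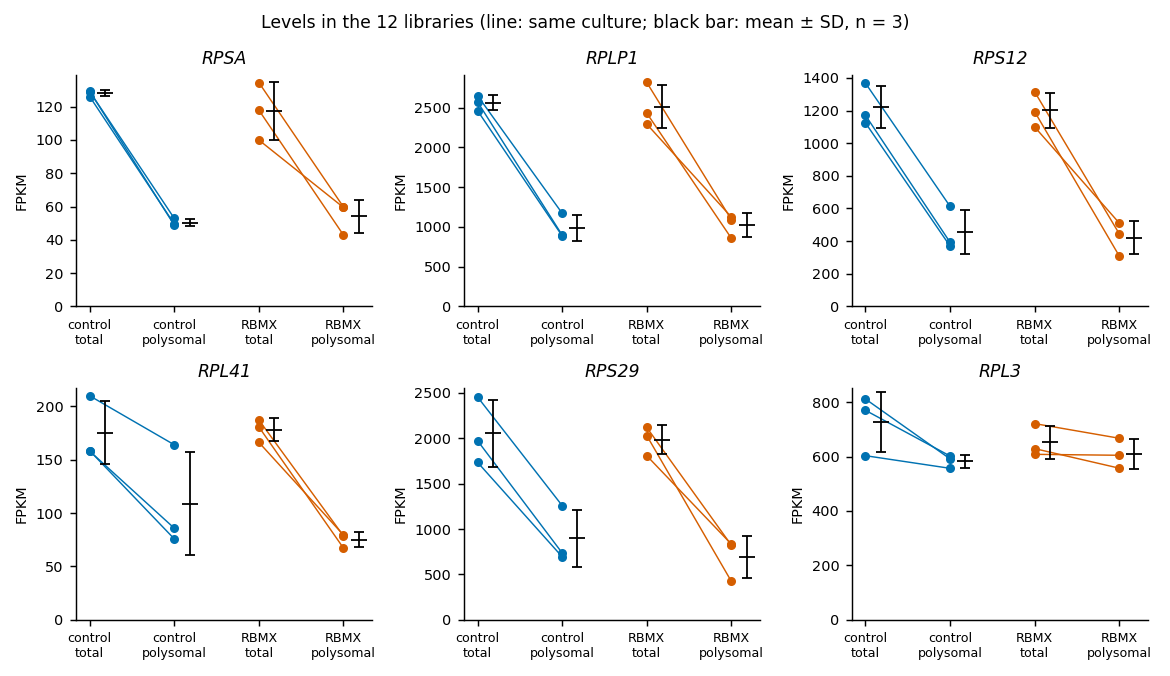
FPKM of RPSA, RPLP1, RPS12, RPL41, RPS29 and RPL3 in the 12 libraries (linear axis from 0). Lines join total and polysomal RNA of the same culture, and black bars give the mean ± SD of 3 libraries. RPSA, RPLP1, RPS12 and RPS29 lie lower in polysomal RNA in all 6 cultures without overlap, whereas RPL3 in RBMX cells overlaps between total (608 to 722) and polysomal RNA (558 to 668).

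In RBMX cells the same comparison again put all 76 genes lower in polysomal RNA in all 3 cultures, against 27.2% of all genes tested. Under quantile normalization 49 of the 76 were lower on average, against 40.0% of all genes, whose median was 0.045 there. The count was 68 under quantile normalization without small RNA genes, 75 with small RNA genes left out and 76 with median-ratio rescaling. The median gene stood at 63.1% of total (log2 difference, -0.66, but -0.23 under quantile normalization), from 33.4% for RPS29 to 93.4% for RPL3, with a median of all genes of -0.00113. Replicates did not overlap for 73 of the 76 genes (42 large, 31 small), against 16.2% of all genes, and 58 had an unadjusted p under 0.05 and lay lower, against 13% of all genes. The count of 58 was 37 without RBMX total replicate 2 and 35 without RBMX total replicate 3, in either direction. There 1727 and 2689 of all 14676 genes had such a p, against 3373 with no replicate left out. Under quantile normalization 31 had such a p in either direction, against 4033 of all 14676 genes. RBMX cultures differed widely: the median gene of culture 2 stood at 50.7% of total, that of culture 1 at 74.5% and that of culture 3 at 64.6%. In control cells these values were 58.2%, 61.9% and 69.8%.

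RPL41 and RPS12 passed the adjusted threshold in RBMX cells, where 1.34% of all genes were called. RPL41 encodes the shortest ribosomal protein, a peptide of 25 residues. Its FPKM was 166, 181 and 187 in RBMX total and 79.5, 67.2 and 78.6 in RBMX polysomal RNA, which left both groups tight and apart (log2 difference -1.24, SE 0.09, limma adjusted p = 0.0118, range over the alternatives 0.00128 to 0.115). RPS12 was at 1099, 1193 and 1315 FPKM in total and at 511, 309 and 445 FPKM in polysomal RNA (log2 difference -1.54, SE 0.22, adjusted p = 0.0483, range 0.00639 to 0.212). With the cultures paired in a replicate block neither passed (adjusted p = 0.115 and 0.134). RPL41 also fell short when RBMX total replicate 2 or 3 was left out, and RPS12 when any 1 of the 6 libraries was. With the spread taken from all 12 libraries, RPS12, RPSA and RPLP1 passed and RPL41 did not, where 21 of all 14676 genes passed. With small RNA genes left out 19 of the 76 genes passed, against 206 of all 14160 genes. With quantile normalization without small RNA genes 21 of the 76 did, against 394 of all 14160 genes. RPSA was just above the threshold (log2 difference -1.11, SE 0.17, adjusted p = 0.0566).

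In control cells RPL41 was less uniform than in RBMX cells. Its FPKM was 158, 158 and 210 in control total and 75.8, 85.8 and 164 in control polysomal RNA, so that the groups overlapped through culture 3 (log2 difference -0.76, SE 0.32, limma adjusted p = 0.63). The RBMX minus control difference of these values was -0.48 (SE 0.35, adjusted p = 1) for RPL41, the most negative of the 76 genes. RPS27, a zinc finger protein, stood next to RPS29 at the low end in RBMX cells (log2 difference -1.55, SE 0.54, adjusted p = 0.19) on a level of only 0.483 to 13.1 FPKM over the RBMX libraries, where the pseudocount of 1 weighs on the fold. RPL3 was at 630, 608 and 722 FPKM in RBMX total and at 558, 605 and 668 FPKM in RBMX polysomal RNA (log2 difference -0.10, SE 0.13, adjusted p = 0.68), and its replicates overlapped. RPL3 turned higher both under quantile normalization and with small RNA genes left out.

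The large and the small subunit differed in the size of the shift. In control cells the median log2 difference was -0.57 over 45 large and -0.80 over 31 small subunit genes, and in RBMX cells it was -0.60 and -0.77. The large subunit stood above the small one in 6 of 6 cultures, by 0.25, 0.26 and 0.16 in control (0.22 ± 0.06, SD, n = 3 cultures) and by 0.08, 0.19 and 0.22 in RBMX cultures (0.16 ± 0.07, SD, n = 3). Under each rescaling tried the order stayed, the gap being least under quantile normalization (medians of -0.37 and -0.45 in control, -0.16 and -0.25 in RBMX cells). The subunits overlapped widely, with RPLP1 and RPL12 of the large subunit among the lowest genes and RPS15 and RPS9 of the small subunit among the highest. No test was run on these medians, since the genes of a subunit are not replicates.

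The order of the genes was much alike in both vectors, which share no library. Across the 76 genes the polysomal against total difference of control cells and that of RBMX cells had a Pearson's r of 0.85 and a Spearman's rho of 0.83 (0.76 and 0.72 over the 45 large, 0.89 and 0.90 over the 31 small subunit genes). The genes are not independent, and both sets of values rest on 1 annotation with the same transcript lengths and copies. The differences hardly followed the level in total RNA (r = 0.065 in control and 0.080 in RBMX cells). They followed protein length in RBMX cells (r = 0.48 against log2 residues) more than in control cells (r = 0.11). Whether this holds without RBMX culture 2, whose median gene stood lowest at 50.7% of total, was not tested. Whether it is particular to ribosomal protein genes was not tested either. In RBMX cells the median was -0.83 over the 23 genes for 25 to 130 residues, -0.77 over the 25 for 132 to 178 and -0.56 over the 28 for 184 to 427, and in control cells it was -0.74, -0.72 and -0.59. The annotated TOP tract separated the genes little, but the split depends on the exact annotated start base. RPL3 counted as without a tract on a run of 4 pyrimidines, and in RPS15 a run lies further into the window. The 45 tested genes with a tract had a median of -0.65 in control and -0.66 in RBMX cells, and the 16 without one had -0.54 and -0.62.

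**Figure D3:**
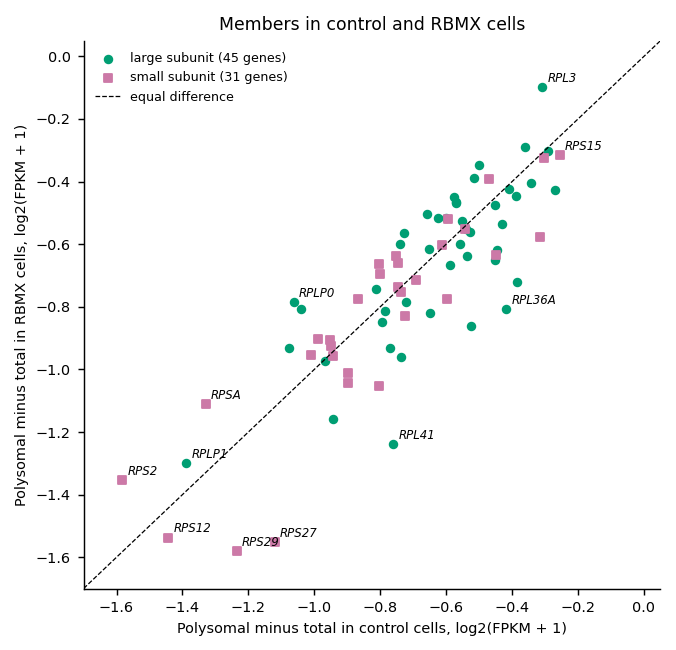
Polysomal minus total difference of the 76 genes in control cells (horizontal) against RBMX cells (vertical), both in log2(FPKM + 1), with large subunit genes as circles, small subunit genes as squares and equality as the dashed line. The points follow the line (Pearson's r of 0.85), with RPL41 (-0.76 and -1.24) among those farthest below it and RPS29 and RPS12 at the low end. The values are on the deposited scale. Under quantile normalization 59 genes in control and 49 in RBMX cells were lower, against 41.3% and 40.0% of all genes.

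Ribosomal protein genes outside the symbol rule and other lists were placed beside these values. GNB2L1 stood at 72.7% of total in control and 82.6% in RBMX cells, and FAU at 96.1% and 87.4%. Both were lower on the deposited scale in both vectors and higher in both under quantile normalization, and neither was called. The paralogs, made from separate gene copies, lay nearer to equality in control cells: of the 6 tested (of 8), 2 were lower and 4 higher, with a median of 0.01. In RBMX cells 5 of the 6 were lower, with a median of -0.33, from 0.02 for RPL7L1 to -0.81 for RPL22L1, and 4 of the 6 with quantile normalization or without small RNA genes. None of the 6 was called. RPL3L and RPL10L were not tested, at no more than 0.281 FPKM in any library.

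Other mRNAs known to carry a TOP tract, for elongation and initiation factors and partners such as PABPC1, were lower in polysomal RNA in 16 of 16 cases in each vector on the deposited scale, 13 and 10 of 16 under quantile normalization. Their medians were -0.50 in control and -0.40 in RBMX cells, between those of the ribosomal protein genes and of all genes. PABPC1, the poly(A)-binding protein, fell in control cells (log2 difference -1.03, SE 0.07, limma adjusted p = 0.0265), and its value in RBMX cells was -0.63 (SE 0.09, adjusted p = 0.0534). TPT1, the translationally controlled tumour protein, fell in RBMX cells (-1.33, SE 0.16, limma adjusted p = 0.0376), and its value in control cells was -1.35 (SE 0.16, adjusted p = 0.17). The list of oxidative phosphorylation genes also held the pseudogene ATP5EP2. Medians of the 76 mitochondrial ribosomal protein genes and of the 75 tested oxidative phosphorylation genes were 0.01 and 0.03 in control cells. In RBMX cells they were -0.11 and -0.14. In RBMX cells these became -0.0075 and 0.08 under quantile normalization, 0.04 and -0.0033 with small RNA genes left out, and -0.05 and -0.05 under quantile normalization without small RNA genes. By limma's adjusted test 0 were called, with 1 and 0 at an unadjusted p under 0.05 in control cells, against 8.04% of all genes, and 0 and 10 in RBMX cells, against 23% of all genes. Ribosome biogenesis factors had medians of -0.02 and -0.05 over 30 genes, both above 0 under quantile normalization. Of these NOP56, a core protein of box C/D small nucleolar ribonucleoproteins, fell in RBMX cells (-0.83, SE 0.06, limma adjusted p = 0.0118). Its value in control cells was -0.75 (SE 0.12, limma adjusted p = 0.37), where its replicates did not overlap either. The 8 dedicated chaperones of ribosomal proteins had medians of 0.01 and -0.04 (0.04 and 0.04 under quantile normalization), with 0 called in either vector by limma's adjusted test and 0 and 1 at an unadjusted p under 0.05.

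**Figure D4:**
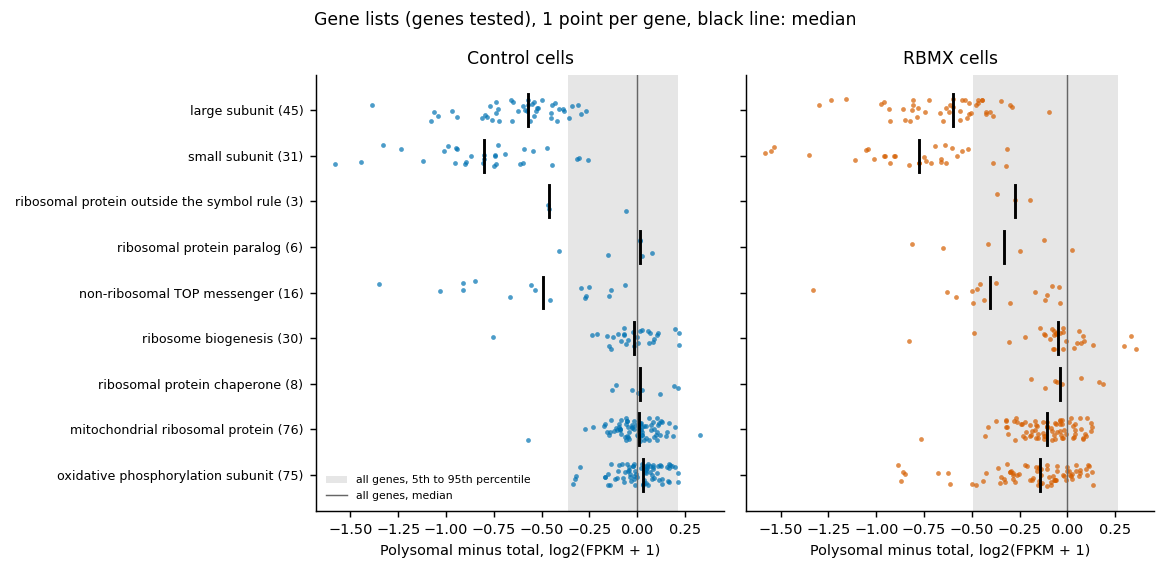
Polysomal minus total difference, log2(FPKM + 1), of the tested genes of each list in control (left) and RBMX cells (right), 1 point per gene with the median as a black line. The grey band spans the 5th to the 95th percentile of all 14676 genes (-0.36 to 0.21 in control, -0.49 to 0.26 in RBMX cells). The medians of both subunits and of the non-ribosomal TOP mRNAs lie left of the band's centre on the deposited scale, and those of the mitochondrial ribosomal proteins lie close to it.

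The next question was whether RBMX overexpression altered the level of ribosomal protein mRNA. In total RNA 0 of the 76 genes were called in limma's adjusted test, where 0.164% of all genes were, and 3 had an unadjusted p under 0.05 (0 to 12 over the alternatives), against 18.8% of all genes. The median difference of RBMX against control was -0.06, the lowest being -0.31 for RPL7. Of the 76 genes, 60 were lower and 16 higher, against 49.8% of all genes lower. Under quantile normalization 74 were lower, against 57.25% of all genes. The count was 39 without control total replicate 3 and 43 without RBMX total replicate 1. The 95% interval of the difference had a median half-width of 0.36, and for 54 of the 76 genes it lay within 0.5 of 0 on the log2 scale. The groups did not overlap in 6 genes, each of the large subunit and lower in RBMX cells, a share below the 15.4% of all genes in that direction, and in 0 genes that were higher, against 11.9%.

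The genes nearest to a difference in total RNA were named by size. RPL7 was at 123, 134 and 154 FPKM in control and at 107, 107 and 116 FPKM in RBMX cells (log2 difference -0.31, SE 0.10, limma adjusted p = 0.20). RPL13A was at 244, 238 and 257 FPKM in control and at 179, 201 and 224 FPKM in RBMX cells (-0.30, SE 0.10, adjusted p = 0.22). RPL15 followed with -0.26 (SE 0.10, adjusted p = 0.25) and RPL5, which carries the 5S ribosomal RNA, with -0.24 (SE 0.12, adjusted p = 0.34). In these genes the replicates of both vectors did not overlap. Towards the upper end RPL36A was at 7.69 to 16.6 FPKM in control and at 10.4 to 15.0 FPKM in RBMX cells, with overlap (0.21, SE 0.29, adjusted p = 0.73), and RPS28 differed by 0.17. For the stalk, RPLP0 differed by -0.25 (SE 0.11, adjusted p = 0.29), RPLP1 by -0.03 and RPLP2 by 0.02, and RPSA differed by -0.13 (SE 0.11, adjusted p = 0.55).

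In polysomal RNA 0 of the 76 genes were called either in limma's adjusted test (0.0477% of all genes were), and 0 had an unadjusted p under 0.05, against 11.7% of all genes. The median difference was -0.09, with 56 genes lower and 20 higher, but it turned to 0.03 without control polysomal replicate 3 and to 0.08 without RBMX polysomal replicate 2. No gene separated the vectors in either direction (12.5% of all genes were lower and 10% higher without overlap). RPS27 had the most negative difference (-0.52, SE 0.27, adjusted p = 0.48) at 1.68 to 2.77 FPKM in control and 0.483 to 1.83 FPKM in RBMX polysomal RNA, and RPL41 followed with -0.44 (SE 0.30, adjusted p = 0.56). RPS2 had the most positive one, from 113 to 173 FPKM in control and from 156 to 208 FPKM in RBMX polysomal RNA (0.37, SE 0.19, adjusted p = 0.47). RPS19, the gene most often mutated in Diamond-Blackfan anaemia, differed by 0.12 (SE 0.29). The intervals were wide, with a median half-width of 0.58, and for 13 of the 76 genes they lay within 0.5 of 0.

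**Figure D5:**
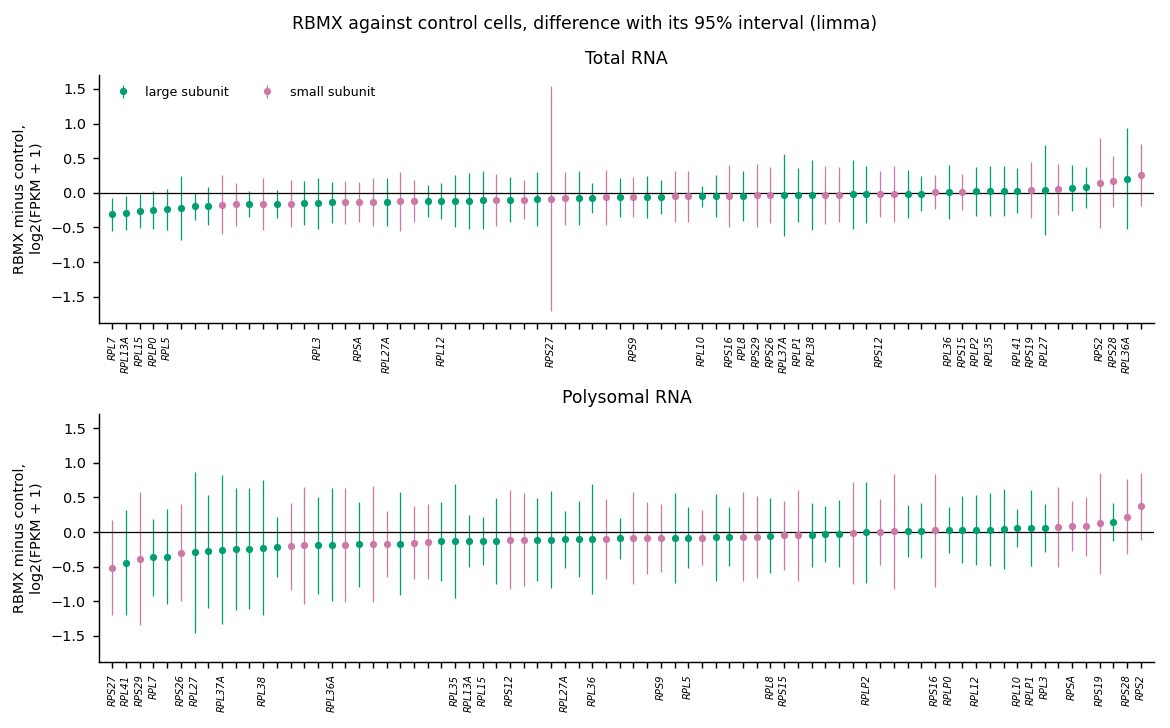
RBMX minus control difference of each of the 76 genes in total RNA (above) and polysomal RNA (below), log2(FPKM + 1), as the limma estimate with its 95% interval and coloured by subunit, with names for genes described in the text. Most intervals cross 0, with exceptions such as RPL7, RPL13A and RPL15 in total RNA, and they are wider in polysomal RNA (median half-width 0.58 against 0.36). Under quantile normalization 74 of the 76 genes were lower in total RNA, against 57.25% of all genes.

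The difference between both effects, fitted on all 12 libraries, asks whether levels in polysomal RNA changed with RBMX beyond the change in total RNA. It was called in 0 of the 76 genes (0.0204% of all genes), with 0 at an unadjusted p under 0.05, against 0.6% of all genes, and each adjusted p at 1. Its median was -0.01, from -0.48 for RPL41 to 0.28 for RPLP0, with 42 genes below and 34 above 0, and it was 0.17 under quantile normalization, 0.12 without control polysomal replicate 3 and 0.15 without RBMX polysomal replicate 2. RPLP0 stood at 47.9% of total in control and 58.0% in RBMX cells (log2 difference of the effects 0.28, SE 0.18), RPSA at 39.8% and 46.3% (0.22, SE 0.19) and RPL3 at 80.7% and 93.4% (0.21, SE 0.19). The half-widths of the unadjusted 95% intervals ran from 0.29 to 1.69, so that smaller differences of a gene could go unseen with 3 cultures per vector. Calls used p-values adjusted over all genes tested, so that larger differences could go uncalled too.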

How the data were processed

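Total and polysomal RNA of 6 HEK293 cultures, 3 per vector, gave 12 libraries. The authors deposited FPKM values for 25268 gene symbols; no counts were used, so the depth is unknown. The submitters' processing notes name CASAVA 1.8, TopHat2 2.0.13, Cufflinks 2.2.1, Cuffnorm and build hg19, without roles. All columns were matched to samples by their labels. Gene and start coordinates are those of GRCh38 (GENCODE release 29, RefSeq) and were used for names and sequences only.

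A mean of 0.5 FPKM over all libraries was required (14676 genes). limma 3.58.1 (R 4.3.3, trend) was run on log2(FPKM + 1), on the groups compared or, for the difference of effects, on all 12 libraries. P-values were adjusted by Benjamini-Hochberg over all genes tested, at 0.05. A fold on this scale understates the change of low genes. Python 3.11.15 and matplotlib 3.10.9 made summaries and plots, and the scripts were tested on simulated data. Small RNA genes were recognised by symbol (2068 listed).

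Total RNA was pooled from gradient fractions, so that same-numbered libraries of a vector were taken as 1 culture, which is not certain since the protocol names 2 dishes for both extractions. In the check of this pairing, total and polysomal deviations had a Pearson's r of 0.62, 0.72 and 0.85 in control and of 0.23, 0.026 and 0.69 in RBMX cultures, while differently numbered libraries reached 0.67 in control and 0.51 in RBMX cells. P-values measure the spread between these libraries. Numbers do not pair across vectors. With 3 against 3 the smallest two-sided exact permutation p is 0.1, so none is given.

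The genes named were RPSA, the stalk genes, each gene called, the 5 lowest and 5 highest differences per comparison, the 5 highest and lowest levels, and up to 4 genes of each other list. RPL10 and RPL12 were named after their values were seen, and a few results are not reported here. The members and lists were chosen with earlier results of these data known. The alternatives were another pseudocount, other filters, 3 rescalings (median-ratio, quantile, small RNA genes left out), no trend, a replicate block, 1 fit of 12 libraries and each replicate left out; quantile normalization without small RNA genes was added after seeing the data.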

Additional observations from a re-analysis of the deposited data

How the results depend on the processing

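The FPKM values give no depth, each group has 3 libraries and scaling decides part of the result. RPSA was called in control cells in each alternative. Members called in control cells numbered 1 to 3 with a replicate left out, where 12 to 26 of all 14676 genes were called. With all 12 libraries in one fit they numbered 8, against 41 of all genes. In RBMX cells 2 were called, against 196 of all 14676 genes. The count was 1 with quantile normalization, no filter, a filter at 0.1 FPKM or a pseudocount of 0.1. There 70, 61, 169 and 168 of all genes were called, in that order. It was 5 with median-ratio rescaling (236 of all genes) and 19 with small RNA genes left out (206 of all genes). With quantile normalization without small RNA genes it was 21 (394 of all genes). The replicate block gave 0, against 4 of all genes. A replicate left out gave 0 to 1 (0 without RBMX total replicate 2 or 3), against 10 to 42 of all genes. The replicate block changed no other count of members called. Leaving out small RNA genes moved the median of all genes in RBMX cells to 0.12, and the members' median relative to it was -0.64. The cause of these changes was not tested.

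Under quantile normalization the members' median became -0.38 in control cells, -0.23 in RBMX cells and, for RBMX against control in total RNA, -0.32, and without small RNA genes -0.44 in both vectors' polysomal against total comparison. With quantile normalization and polysomal against total RNA in control cells, RPL35 was at 0.48, RPL8 at 0.40, RPLP2 at 0.23, RPS15 at 0.023, RPS9 at 0.18, FAU at 0.25 and GNB2L1 at 0.20. Without small RNA genes in this normalization RPL35 was at 0.28, RPL8 at 0.21, RPLP2 at 0.069, RPS9 at 0.046 and FAU at 0.088, and with small RNA genes left out FAU was at 0.039. In RBMX cells quantile normalization put RPL3 at 0.46, RPL8 at 0.54, RPLP2 at 0.36, RPS15 at 0.19, RPS9 at 0.42, FAU at 0.40, GNB2L1 at 0.64 and RPL36AL at 0.35. Without small RNA genes it put RPL3 at 0.15, RPL8 at 0.12, RPS9 at 0.054, FAU at 0.058, GNB2L1 at 0.24 and RPL36AL at 0.086, and with small RNA genes left out RPL3 was at 0.047 and RPL36AL at 0.024.

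For RBMX against control in total RNA, quantile normalization put RPL29 at -0.13, RPLP2 at -0.37 and RPS2 at -0.093. Without small RNA genes it put RPL29 at -0.00021, and leaving small RNA genes out put RPLP2 at -0.024. In polysomal RNA quantile normalization put RPLP1 at -0.037 and RPS19 at -0.058, the same without small RNA genes put RPLP1 at -0.054, and median-ratio rescaling put RPLP2 at 0.020. For the difference of both effects RPLP1 was at -0.039 with quantile normalization without small RNA genes, and RPLP2 at 0.13 with quantile normalization and 0.023 with small RNA genes left out.

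With a replicate left out, polysomal against total RNA in control cells ranged from -0.15 to 0.0015 for FAU, -0.023 to 0.089 for RPL7L1, -0.069 to 0.13 for RPL26L1, -0.080 to 0.089 for RPL39L and -0.35 to 0.0049 for RPS27L, and in RBMX cells from -0.012 to 0.088 for RPL7L1. RBMX against control in total RNA ranged from -0.0048 to 0.16 for RPL29, -0.12 to 0.032 for RPLP1, -0.030 to 0.055 for RPLP2 and -0.048 to 0.39 for RPS2, and in polysomal RNA from -0.067 to 0.115 for RPLP0, -0.013 to 0.19 for RPLP1 and -0.14 to 0.18 for RPLP2. The difference of both effects ranged from -0.16 to 0.16 for RPLP2, -0.016 to 0.42 for RPS2 and -0.87 to 0.14 for RPS27.

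The large minus small subunit difference of log2 levels became -0.52, -0.32, -0.56 and -0.35 in control total, control polysomal, RBMX total and RBMX polysomal RNA with means in place of medians, and -0.82, -0.74, -0.94 and -0.72 with members at a mean of at least 100 FPKM.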

Other observations

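The 30 ribosome biogenesis factors tested, such as the nucleolar protein NCL, the box H/ACA protein NOP10 and the maturation factors PES1 and BYSL, were higher in RBMX than in control total RNA in 30 of 30 cases on the deposited scale and in 25 to 30 of 30 under the rescalings tried, against 49.7% of all genes higher, with a median log2 difference of 0.20, from 0.01 for NOP10 to 0.51 for PES1. In polysomal RNA 28 of 30 were higher, 27 or 28 under the rescalings, against 49.5% of all genes, with a median of 0.19. The groups did not overlap for 16 of the 30 in total RNA, against 11.9% of all genes in that direction, and 10 of the 30 in polysomal RNA, against 10%. By limma's adjusted test 0 of the 30 were called in either RNA, with 8 in total RNA at an unadjusted p under 0.05, against 18.8% of all genes, and 4 in polysomal RNA, against 11.7%. The tested ribosomal protein genes had medians of -0.06 and -0.09 in the same comparisons, each set against the same control libraries as the biogenesis factors.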
